A study of Mus musculus with 10 samples.

Results

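The Toll-like receptors and their co-receptors were followed in RNA-sequencing of the lumbar spinal cord of SOD1G86R mice, a model of amyotrophic lateral sclerosis. The rows of the count table whose Ensembl identifier maps to Tlr1, Tlr2, Tlr3, Tlr4, Tlr6, Tlr7, Tlr9, Tlr13, Cd180 or Cd14 were taken, which gave 10 of 32506 genes. Female FVB mice (FVB/N in the study's methods) carrying SOD1G86R +/- were compared with litter-matched non-transgenic wild type mice (WT), all at postnatal day 95, with 5 mice per group and 1 library per mouse. The transgenic mice overexpress mutant SOD1 and had motor symptoms at this age, and mice of both groups were perfused with PBS before dissection. The promoter that drives the transgene is not given in the sources used here.

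Toll-like receptors recognise molecules of microbes and molecules released by damaged cells through a horseshoe of leucine-rich repeats. Their intracellular TIR domain recruits the adaptors MyD88 or TRIF, which lead to NF-kB and to interferon regulatory factors. Tlr1, Tlr2, Tlr4 and Tlr6 act at the cell surface, while Tlr3, Tlr7, Tlr9 and Tlr13 read nucleic acids in endosomes. Cd14 hands lipopolysaccharide and lipopeptides to the surface receptors, and Cd180 is a relative of Tlr4 that lacks the TIR domain. In the spinal cord microglia are the main carriers of most of these receptors, and Tlr3 is also known from astrocytes.

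Tlr1 and Tlr6 lie next to each other on chromosome 5 and are the only pair among the 10 genes whose annotated transcripts hold identical stretches of 50 bases. Of the 50-base windows of Tlr1, 13.6% recur in Tlr6, and of those of Tlr6, 12.3% recur in Tlr1. The longest run common to both genes has 229 bases and lies in the coding sequence, at chr5:64925537-64925765 of Tlr1 and chr5:64953828-64954056 of Tlr6 (GRCm38, minus strand). It is shown because reads within it cannot be assigned to either receptor, so that the counts of Tlr1 and Tlr6 are uncertain to that extent.
Tlr1 and Tlr6 common run: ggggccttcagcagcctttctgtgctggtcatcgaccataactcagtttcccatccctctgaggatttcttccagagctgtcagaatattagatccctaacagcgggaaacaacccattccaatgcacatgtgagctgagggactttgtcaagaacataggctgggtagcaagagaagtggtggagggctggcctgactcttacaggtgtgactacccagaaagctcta

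The study measured Cd180 also by quantitative PCR, and its primers mark where that assay lies in the transcript. Both primers match 1 of 5 annotated Cd180 transcripts, from base 2172 for the forward primer.
Cd180 forward primer: tgtcccaagtgaagaaactgtca
Cd180 reverse primer: aaagctcagtgaacccccag

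RefSeq promoters of GRCm38.p6, from 250 bases before to 50 after a start site, were matched to 7 of the 10 genes, 10 promoters in all, since Tlr1, Tlr6 and Cd180 have 2 each. They were searched on both strands for GAGGAAGT (PU.1), GAAANN followed by GAAA (the repeat of an interferon response element), GGAANN followed by GAAA (an ETS and IRF composite), GGGANT followed by NTCC (NF-kB), TGANTCA (AP-1) and TTNCNNAA (C/EBP). In order, 3.2, 3.44, 2.72, 1.18, 7.81 and 40.7% of 32851 promoters of that length hold them. The promoters of Cd180 and Tlr1, whose levels rose in SOD1G86R mice, are shown beside those of Tlr6 and Tlr3, which had the smallest fold changes, with matches in capitals and the first promoter listed where a gene has 2. Cd180 (chr13:102693297-102693596, plus strand) has no match in this window. Tlr1 (chr5:64933509-64933808, minus strand) has the PU.1 letters with their first base at -23, where 0 is the start site. Tlr6 (chr5:64959117-64959416, minus strand) has overlapping interferon response matches at -116 and -110 and a C/EBP match at -89. Tlr3 (chr8:45410331-45410630, minus strand) has the NF-kB letters at -211 and C/EBP matches at -126 and -95. The second promoters of Tlr1 (chr5:64932650-64932949), Tlr6 (chr5:64959999-64960298) and Cd180 (chr13:102693308-102693607) hold 0 matches. Of the other promoters not shown, that of Tlr9 holds PU.1 letters at 10, overlapping a C/EBP match at 12, and AP-1 letters at -58, and those of Tlr2 and Tlr13 hold a C/EBP match at -245 and 0. A match is a description of letters and was not tested for binding.
Cd180 promoter: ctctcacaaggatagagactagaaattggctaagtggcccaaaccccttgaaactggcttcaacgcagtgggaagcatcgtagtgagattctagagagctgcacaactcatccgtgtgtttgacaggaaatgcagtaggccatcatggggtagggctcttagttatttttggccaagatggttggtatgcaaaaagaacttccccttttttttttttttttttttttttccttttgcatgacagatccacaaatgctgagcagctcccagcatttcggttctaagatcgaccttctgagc
Tlr1 promoter: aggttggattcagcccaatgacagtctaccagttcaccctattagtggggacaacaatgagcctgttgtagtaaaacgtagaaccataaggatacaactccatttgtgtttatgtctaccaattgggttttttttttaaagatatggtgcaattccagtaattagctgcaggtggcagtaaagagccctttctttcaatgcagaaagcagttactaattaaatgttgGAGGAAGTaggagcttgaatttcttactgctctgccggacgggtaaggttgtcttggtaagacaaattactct
Tlr6 promoter: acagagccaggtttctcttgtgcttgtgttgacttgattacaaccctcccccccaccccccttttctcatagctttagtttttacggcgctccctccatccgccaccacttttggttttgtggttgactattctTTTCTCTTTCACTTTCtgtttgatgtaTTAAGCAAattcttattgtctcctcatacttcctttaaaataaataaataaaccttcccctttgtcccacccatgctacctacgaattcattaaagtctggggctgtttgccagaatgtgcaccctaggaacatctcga
Tlr3 promoter: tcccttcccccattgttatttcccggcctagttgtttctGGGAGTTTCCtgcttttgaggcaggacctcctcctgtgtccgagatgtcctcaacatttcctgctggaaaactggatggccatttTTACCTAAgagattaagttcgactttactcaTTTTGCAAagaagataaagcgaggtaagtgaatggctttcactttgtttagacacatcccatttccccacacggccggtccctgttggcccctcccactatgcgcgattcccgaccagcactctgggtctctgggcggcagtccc

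The libraries held 29333590 to 46003999 counts, reads per gene as deposited by the authors, and levels are given as CPM, the count scaled to an equal library total after TMM normalization. Sod1 lay at 127 to 209.8 CPM in WT and 3918 to 6415 CPM in SOD1G86R mice, so that every library matched its genotype label. SOD1G86R replicate 4 stood apart from its group. Its Sod1 was lowest among the transgenic libraries, and Scn10a and Avil, genes of sensory ganglia, had 639 and 461 counts in it against at most 3 and 18 in any other library. The part of these differences in the receptor levels was not tested, and the comparisons are given with and without this mouse.

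All 10 receptor genes passed the filter on low counts and had higher mean levels in SOD1G86R mice, by log2 0.28 for Tlr3 to 1.81 for Cd180, with a median of 1.24 against -0.01 over all 16974 genes tested. Cd180 and Tlr1 rose, and 8 did not pass the test (edgeR adjusted p under 0.01). In this comparison 0.866% of all genes were called higher. Cd180, Tlr1 and Tlr7 had no overlap between groups, which held for 3.09% of all genes in the same direction. An unadjusted p under 0.05 was reached by 10 of 10, all in the higher direction, and by 10.8% of all genes in that direction. Without SOD1G86R replicate 4, 9 of the 10 rose, all but Tlr6, where 4.55% of all genes were called higher. DESeq2 called 8 of them higher, all but Tlr3 and Tlr6, with 3.82% of all genes, and limma voom called 0 of 10, with 0.171% of all genes. With sample quality weights voom called 8 of 10, beside 3.81%, and edgeR at a threshold of 0.05 called 8 of 10, beside 3.85%. Without another single mouse 0 or 1 of the 10 was called, where the share of all genes called higher was 0.134% (without WT 1), 0.105% (without WT 2), 0.07% (without WT 3), 0.093% (without WT 4), 0.117% (without WT 5), 0.151% (without SOD1G86R 1), 0.129% (without SOD1G86R 2), 0.152% (without SOD1G86R 3) and 0.187% (without SOD1G86R 5). In a bulk sample, more cells of a type and more RNA per cell cannot be told apart.

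**Figure D1:**
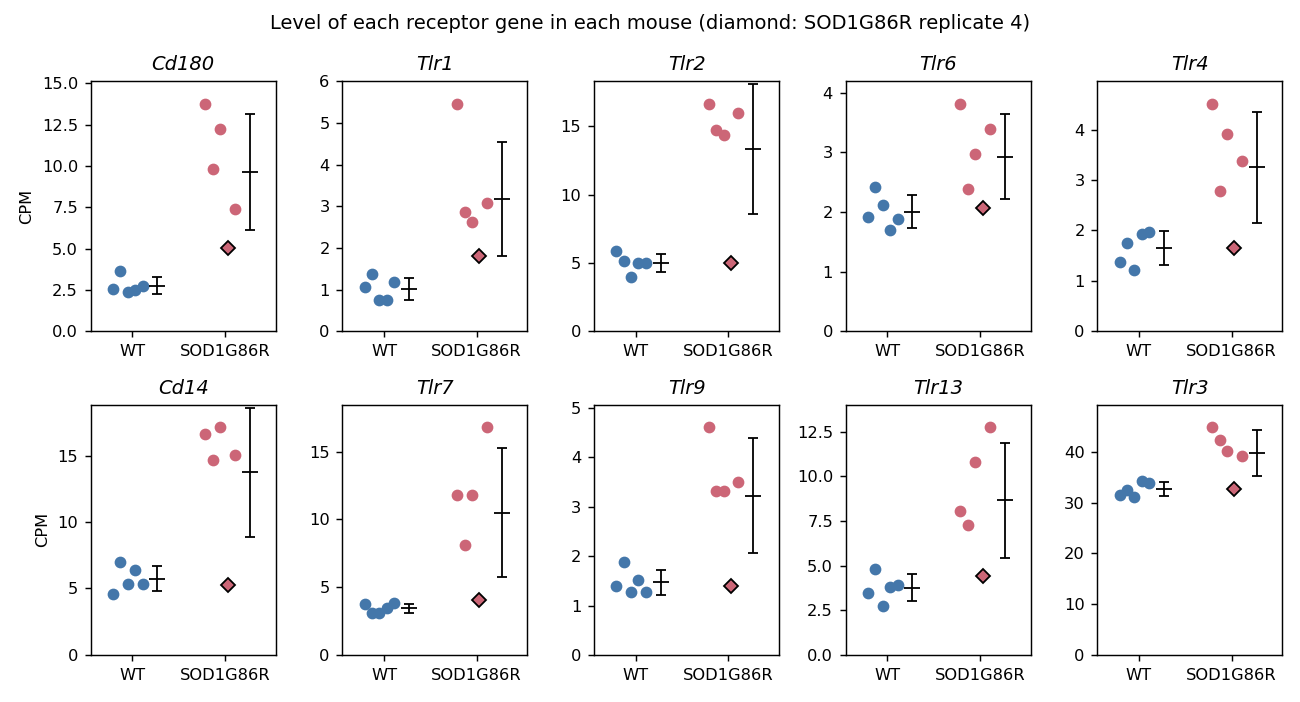
CPM of the 10 receptor genes (vertical axes, each from 0) in the 5 WT and 5 SOD1G86R mice, with 1 point per mouse, a diamond for SOD1G86R replicate 4, and the mean with its SD to the right of the points. The diamond is the lowest SOD1G86R point in all 10 panels, and the groups are apart for Cd180, Tlr1 and Tlr7.

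Among the genes of the lipopolysaccharide receptor family the largest difference was that of Cd180 (ENSMUSG00000021624, chromosome 13, 102693558 to 102739629, GRCm38 as for the other genes), which on B cells and myeloid cells pairs with MD-1. In the order of replicate numbers its level was 2.56, 3.62, 2.37, 2.48 and 2.71 CPM in WT and 13.8, 9.8, 12.2, 5.03 and 7.42 CPM in SOD1G86R mice (log2 fold change 1.81, standard error 0.25, edgeR adjusted p = 0.00408). The study chose Cd180 for further work from these same mice. Every SOD1G86R mouse lay above every WT mouse, and even the lowest, replicate 4, was at 1.83 times the WT mean. Cd180 was called in 4 of 10 fits that left out 1 mouse, namely those without WT replicate 2 or SOD1G86R replicate 1, 4 or 5, and the adjusted p over these 10 fits ran from 1.06e-05 to 0.0197. Of its exons, 182 bases overlap exons of Mast4, a kinase gene on the opposite strand, and the strand setting of the counting is not given in the sources used here.

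Tlr4 (chromosome 4, 66827584 to 66930284), the signalling receptor for lipopolysaccharide, was at 1.36, 1.75, 1.21, 1.92 and 1.97 CPM in WT and 4.51, 2.78, 3.92, 1.65 and 3.38 CPM in SOD1G86R mice (log2 fold change 0.98, standard error 0.24, edgeR adjusted p = 0.0354). Replicates 1, 2, 3 and 5 lay above all WT mice and replicate 4 among them. Cd14 (chromosome 18, 36725067 to 36726798), the lipopolysaccharide-binding co-receptor on monocytes and microglia, was at 4.6, 6.99, 5.34, 6.39 and 5.36 CPM in WT and 16.6, 14.7, 17.1, 5.25 and 15 CPM in SOD1G86R mice (log2 fold change 1.26, standard error 0.28, edgeR adjusted p = 0.0275). It showed the same order, with replicate 4 at 0.916 times the WT mean and the other SOD1G86R mice close together. The log2 fold change of Tlr4 was 1.14 without SOD1G86R replicate 4 (edgeR adjusted p = 0.00112) and that of Cd14 was 1.47 without SOD1G86R replicate 4 (edgeR adjusted p = 2.14e-06). The partner proteins of these receptors, MD-2 (Ly96), which binds lipopolysaccharide for Tlr4, and MD-1 (Ly86), which holds Cd180 at the surface, are described with the pathway.

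Of the lipopeptide receptors, Tlr1 (chromosome 5, 64924679 to 64933563), which joins Tlr2 to bind triacylated lipopeptides, had the lowest CPM of the 10 genes in WT. It was at 1.06, 1.37, 0.759, 0.744 and 1.17 CPM in WT and 5.46, 2.86, 2.62, 1.82 and 3.08 CPM in SOD1G86R mice, 24 to 54 and 56 to 173 counts (log2 fold change 1.63, standard error 0.28, edgeR adjusted p = 0.00734). The groups did not overlap and the mouse with the highest level was SOD1G86R replicate 1. Tlr1 was called in 1 of 10 fits that left out 1 mouse, that without SOD1G86R replicate 4, with adjusted p of 0.000383 to 0.0303 over the 10 fits.

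Tlr2 (chromosome 3, 83836272 to 83841767), the common chain of both lipopeptide receptors, was at 5.86, 5.15, 3.98, 4.99 and 4.99 CPM in WT and 16.7, 14.7, 14.4, 4.96 and 16 CPM in SOD1G86R mice (log2 fold change 1.42, standard error 0.28, edgeR adjusted p = 0.017). In 4 SOD1G86R mice it was well above WT with little spread, and in replicate 4 it was at 0.994 times the WT mean. Its log2 fold change was 1.63 without SOD1G86R replicate 4 (edgeR adjusted p = 4.73e-07). Tlr6 (chromosome 5, 64952031 to 64960097), which joins Tlr2 to bind diacylated lipopeptides, was at 1.91, 2.41, 2.13, 1.71 and 1.89 CPM in WT and 3.82, 2.39, 2.98, 2.08 and 3.4 CPM in SOD1G86R mice (log2 fold change 0.55, standard error 0.17, edgeR adjusted p = 0.105). SOD1G86R replicates 2 and 4 lay within the WT range, and Tlr6 was past the threshold in 0 of 10 edgeR fits that left out 1 mouse (lowest adjusted p = 0.023), although its unadjusted edgeR p was 0.0077.

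Of the endosomal receptors, Tlr7 (chromosome X, 167304929 to 167330558), which senses single-stranded RNA, was at 3.75, 3.11, 3.07, 3.47 and 3.8 CPM in WT and 11.8, 8.08, 11.8, 4.05 and 16.8 CPM in SOD1G86R mice (log2 fold change 1.61, standard error 0.31, edgeR adjusted p = 0.0156). The groups did not overlap, but SOD1G86R replicate 4 lay only just above the highest WT mouse. Tlr13 (chromosome X, 106143204 to 106160493), a receptor of mice for bacterial ribosomal RNA, was at 3.44, 4.83, 2.76, 3.81 and 3.93 CPM in WT and 8.08, 7.3, 10.8, 4.41 and 12.7 CPM in SOD1G86R mice (log2 fold change 1.21, standard error 0.25, edgeR adjusted p = 0.0186). Only SOD1G86R replicate 4 fell within its WT range. These X-linked genes were highest in SOD1G86R replicate 5, whereas 7 of the other 8 were highest in replicate 1 and Cd14 in replicate 3.

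Tlr9 (chromosome 9, 106222598 to 106226883), the receptor for unmethylated CpG DNA, was at 1.4, 1.87, 1.28, 1.52 and 1.28 CPM in WT and 4.61, 3.31, 3.31, 1.39 and 3.51 CPM in SOD1G86R mice (log2 fold change 1.14, standard error 0.25, edgeR adjusted p = 0.0208). Again 4 SOD1G86R mice lay above all WT mice and replicate 4 among them. Tlr3 (chromosome 8, 45395665 to 45411080), which senses double-stranded RNA and signals through TRIF, was at 31.5, 32.6, 31.1, 34.3 and 33.9 CPM in WT and 44.8, 42.3, 40.1, 32.6 and 39.1 CPM in SOD1G86R mice (log2 fold change 0.28, standard error 0.08, edgeR adjusted p = 0.055). It had by far the most counts of the 10 genes (924 to 1562 in WT) and the smallest fold change, with 4 SOD1G86R mice above all WT mice. Of its exons, 381 bases overlap an antisense gene, Gm45542, that is not among the 32506 genes with deposited counts. Without SOD1G86R replicate 4 all of these rose, Tlr7 by 1.81, Tlr13 by 1.37, Tlr9 by 1.33 and Tlr3 by 0.35 on the log2 scale (edgeR adjusted p of 1.70e-05, 0.000267, 9.26e-05 and 0.00216).

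**Figure D2:**
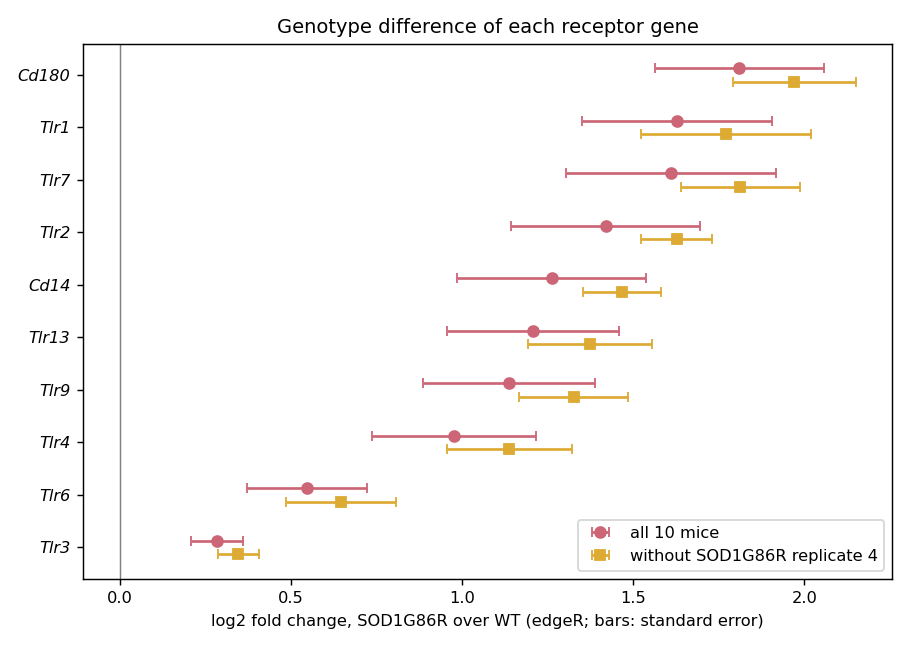
The log2 fold change of SOD1G86R over WT (horizontal axis, edgeR, bars are standard errors) for each receptor gene with all 10 mice and without SOD1G86R replicate 4. Every estimate is above 0, with Cd180 at 1.81 and Tlr3 at 0.28 over all mice, and each is larger without that mouse.

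Pairs of these genes that share a complex, a ligand class or a relation of structure were compared. The log2 ratio of their CPM was taken within each mouse, for 7 pairs with unadjusted p. Tlr1 over Tlr6 was -0.97 ± 0.31 in WT and 0.05 ± 0.32 in SOD1G86R mice (SD, n = 5 mice each, exact permutation p = 0.00794). The genes with the common run of sequence thus differed in how far they moved, by a log2 difference of 1.08 without SOD1G86R replicate 4 and 1.02 with it. Tlr2 over Tlr6 was 1.29 ± 0.3 in WT and 2.08 ± 0.51 in SOD1G86R mice (SD, n = 5 mice each, exact permutation p = 0.0317). Its difference was 1.0 without SOD1G86R replicate 4 (exact permutation p = 0.00794), but missed 0.05 without SOD1G86R replicate 1, 2, 3 or 5 in turn, with p up to 0.0635. Tlr2 over Tlr1 was 2.25 ± 0.31 in WT and 2.03 ± 0.48 in SOD1G86R mice (SD, n = 5 mice each, exact permutation p = 0.405), with ranges of 1.87 to 2.65 in WT and 1.42 to 2.43 in SOD1G86R mice, so that a difference between these chains was not detectable with 5 mice.

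Cd180 over Tlr4 was 0.73 ± 0.3 in WT and 1.54 ± 0.25 in SOD1G86R mice (SD, n = 5 mice each, exact permutation p = 0.00794), and every SOD1G86R mouse, replicate 4 included, had a higher ratio than every WT mouse. Cd14 over Tlr4 was 1.78 ± 0.26 in WT and 2.02 ± 0.28 in SOD1G86R mice (SD, n = 5 mice each, exact permutation p = 0.198). Tlr3 over Tlr7, the receptors for double-stranded and single-stranded RNA, was 3.23 ± 0.13 in WT and 2.05 ± 0.67 in SOD1G86R mice (SD, n = 5 mice each, exact permutation p = 0.00794), and the ranges did not overlap. Tlr7 over Tlr9 was 1.2 ± 0.31 in WT and 1.63 ± 0.4 in SOD1G86R mice (SD, n = 5 mice each, exact permutation p = 0.0952). Without SOD1G86R replicate 4 the differences of these ratios were 0.81 for Cd180 over Tlr4, 0.35 for Cd14 over Tlr4, -1.41 for Tlr3 over Tlr7 and 0.46 for Tlr7 over Tlr9, against 0.81, 0.25, -1.18 and 0.43 with all mice. The value of 0.00794 is the smallest p that 5 mice against 5 allow.

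Levels of different genes were compared per kilobase of merged exons (CPM per kb). In WT mice Tlr3 was highest, at 5.96 to 6.59 CPM per kb, followed by Cd14 at 2.66 to 4.04 and Tlr2 at 1.32 to 1.95, and these ranges were apart from each other and from the genes below. From Tlr13 through Tlr7, Cd180, Tlr6, Tlr9 and Tlr1 to Tlr4, neighbours in the order overlapped, with medians of 0.886 to 0.314 CPM per kb. In SOD1G86R mice Cd14 had the highest median, 8.69 CPM per kb, and Tlr3 came next at 7.69, although their ranges overlapped, with replicate 4 and without it (Cd14 from 8.46 and Tlr3 up to 8.6 in the other 4 mice). Tlr3 made up a median of 42% of the summed CPM per kb of the 10 genes in WT and 23.7% in SOD1G86R mice, with 39.4% in replicate 4. The sum itself was 13.7 to 16.6 CPM per kb in WT and 15.9 to 36.3 in SOD1G86R mice.

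**Figure D3:**
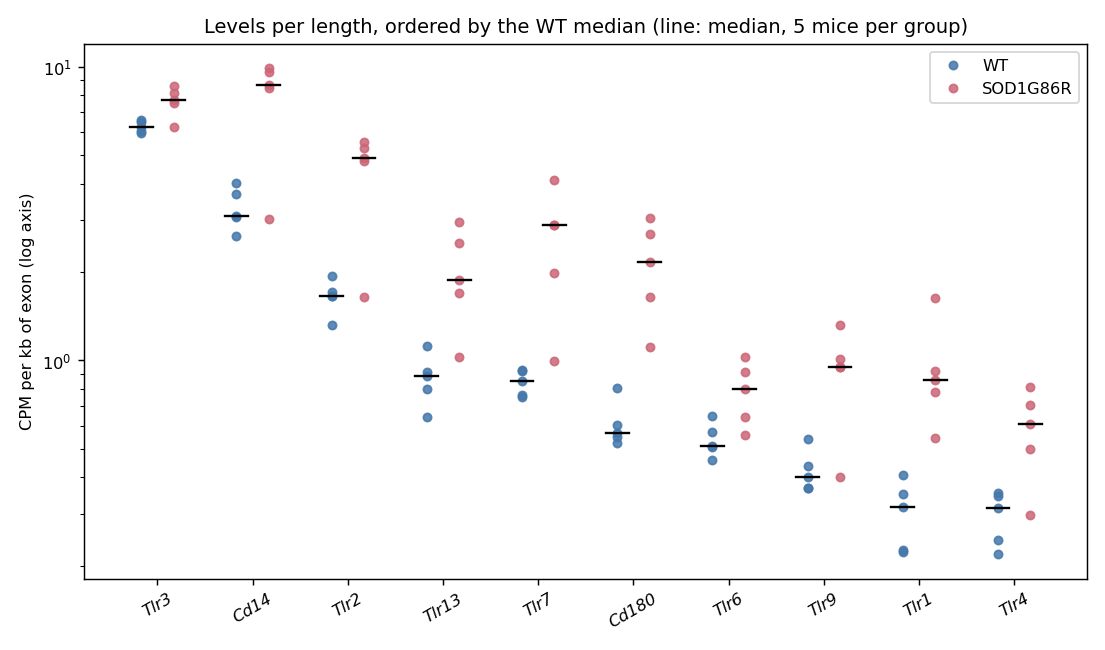
CPM per kb of exon on a log axis for each receptor gene, ordered by its WT median, with 1 point per mouse and a line at the median of the 5 mice of a group. Tlr3 leads in WT with a median of 6.25 CPM per kb, and Cd14 in SOD1G86R mice with 8.69.

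Of 12 microglia markers, Cx3cr1, Olfml3 and Siglech rose in SOD1G86R mice and 9 did not pass the test, with a median log2 fold change of 0.56 and a summed level of 489.7 to 609 CPM in WT and 624 to 1079 CPM in SOD1G86R mice (624 CPM in replicate 4). By edgeR 0.866% of all genes were called higher. An unadjusted edgeR p under 0.05 was reached by 11 of the 12, all higher, beside 10.8% of all genes in that direction. DESeq2 called 9 of the 12 higher and limma voom 0, beside 3.82 and 0.171% of all genes. The receptors were also expressed as the log2 ratio to the mean of these 12 genes in the same mouse. Relative to them Cd180 was -3.45 ± 0.15 in WT and -2.31 ± 0.35 in SOD1G86R mice (SD, n = 5 mice each, exact permutation p = 0.00794), and Tlr1 was -4.85 ± 0.32 in WT and -3.91 ± 0.41 in SOD1G86R mice (SD, n = 5 mice each, exact permutation p = 0.00794). All 5 SOD1G86R mice lay above all WT mice for both genes, and without replicate 4 the differences were 1.25 and 1.02. Tlr7 was -3.12 ± 0.21 in WT and -2.25 ± 0.61 in SOD1G86R mice (SD, n = 5 mice each, exact permutation p = 0.0238), with 4 SOD1G86R mice above WT. Tlr2, Tlr13 and Cd14 differed in the same direction by 0.72, 0.55 and 0.57 (n = 5 mice each, exact permutation p = 0.0476, 0.0238 and 0.0476). When 1 mouse was left out, Tlr2 missed 0.05 in 8 of 10 cases, Tlr13 in 3 and Cd14 in 6, while without SOD1G86R replicate 4 their differences were 0.95, 0.67 and 0.79. With Cx3cr1, Csf1r and Aif1 in place of the 12, the differences of Cd180, Tlr1 and Tlr7 were 0.83, 0.64 and 0.57 (exact permutation p = 0.00794, 0.0238 and 0.0238), against 1.14, 0.95 and 0.87 with the 12. Those of Tlr2, Tlr13 and Cd14 were 0.41, 0.24 and 0.27 (exact permutation p = 0.0635, 0.254 and 0.167).

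Tlr3 moved the other way against the microglia markers. Its log2 ratio was 0.11 ± 0.1 in WT and -0.2 ± 0.12 in SOD1G86R mice (SD, n = 5 mice each, exact permutation p = 0.00794), and it remained lower against Cx3cr1, Csf1r and Aif1 (-0.61, exact permutation p = 0.0159). Tlr6 was -3.89 ± 0.18 in WT and -3.96 ± 0.22 in SOD1G86R mice (SD, n = 5 mice each, exact permutation p = 0.556), and the difference was -0.38 against those 3 markers (exact permutation p = 0.0159). Tlr4 and Tlr9 differed by 0.32 and 0.44 (exact permutation p = 0.119 and 0.0714), by 0.02 and 0.14 against the 3 markers (exact permutation p = 0.873 and 0.302), and by 0.45 and 0.62 against the 12 without SOD1G86R replicate 4 (exact permutation p = 0.0317 and 0.00794). The markers are not a count of cells, since their own levels per cell may differ between genotypes.

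**Figure D4:**
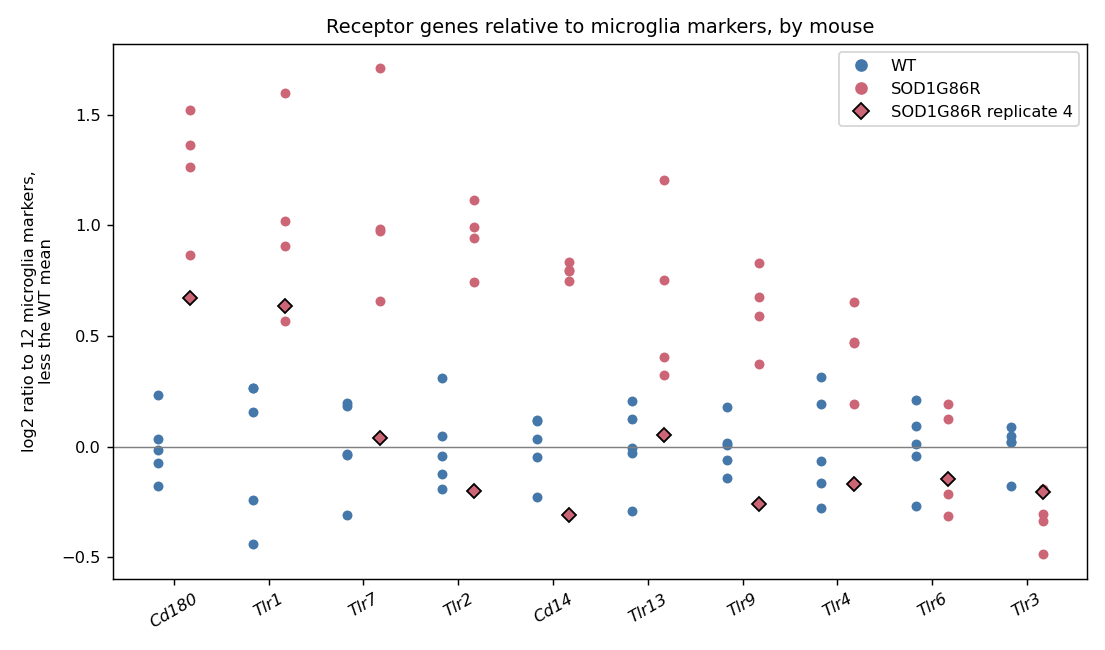
The log2 ratio of each receptor gene to the mean of 12 microglia markers, less its WT mean (vertical axis), with 1 point per mouse and a diamond for SOD1G86R replicate 4. Cd180 and Tlr1 are higher in all 5 SOD1G86R mice, with mean differences of 1.14 and 0.95, and Tlr3 is lower, with -0.3.

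The counts for the pathway and marker lists stand beside the shares of all genes called higher. These were 0.866% by edgeR, 10.8% at an unadjusted edgeR p under 0.05, 3.82% by DESeq2 and 0.171% by limma voom. Of the other Toll-like receptor genes 2 of 4 were tested, and 0 passed or had an unadjusted p under 0.05 by edgeR, or were called by DESeq2 or limma voom. Tlr5, the flagellin receptor, had 1.17 ± 0.187 CPM in WT and 1.11 ± 0.241 CPM in SOD1G86R mice (SD over 5 mice, as for all genes that follow), and Tlr12, a receptor of mice for a protein of Toxoplasma, had 0.859 ± 0.35 CPM and 1.25 ± 0.359 CPM (edgeR adjusted p = 0.878 and 0.399). Tlr8 and Tlr11 did not pass the filter, with at most 15 and 2 counts in a library. Of 8 genes for receptor partners and trafficking 0 passed edgeR's test, 2 had an unadjusted p under 0.05, DESeq2 called 2 and limma voom 0. They were Ly86, the MD-1 partner of Cd180, at 10.4 ± 1.53 CPM in WT and 26.4 ± 8.99 CPM in SOD1G86R mice (log2 fold change 1.34, standard error 0.24, edgeR adjusted p = 0.0122), and Unc93b1, which carries the endosomal receptors to their compartment, at 18 ± 1.98 CPM and 32.3 ± 9.11 CPM (log2 fold change 0.84, standard error 0.19, edgeR adjusted p = 0.0303). Both were called without SOD1G86R replicate 4, whereas Ly96, the MD-2 partner of Tlr4, was at 0.693 ± 0.152 CPM and 0.916 ± 0.292 CPM (edgeR adjusted p = 0.434, 0.211 without that mouse).

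Of 5 proteases that cleave the endosomal receptors 0 passed, while 4 were higher and Ctsk lower at an unadjusted p under 0.05, and DESeq2 called 3 higher and limma voom 0. Ctss, the cathepsin of antigen-presenting cells, was at 120.4 ± 13.5 CPM in WT and 341 ± 111 CPM in SOD1G86R mice (log2 fold change 1.5, standard error 0.25, edgeR adjusted p = 0.0114). Lgmn, an asparaginyl endopeptidase, had a log2 fold change of 0.38 and Ctsb, another lysosomal cathepsin, of 0.45 (edgeR adjusted p = 0.0185 and 0.025). Of 6 adaptors Pik3ap1, which links the receptors to PI3-kinase, rose from 2.99 ± 0.38 CPM to 6.48 ± 2.04 CPM (log2 fold change 1.12, standard error 0.2, edgeR adjusted p = 0.00859). Ticam2, the bridge from Tlr4 to TRIF, was at 0.595 ± 0.12 CPM and 1.37 ± 0.463 CPM (log2 fold change 1.22, standard error 0.27, edgeR adjusted p = 0.0191), and Myd88 at 5.9 ± 0.129 CPM and 8.31 ± 1.71 CPM (log2 fold change 0.49, standard error 0.13, edgeR adjusted p = 0.0429). All 3 had an unadjusted p under 0.05 and were called by DESeq2 and without SOD1G86R replicate 4, while limma voom called 0.

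Of 14 kinases and ubiquitin ligases 0 passed, and their median log2 fold change was 0.06. Ripk1, a kinase shared with TNF and TRIF signalling, was the only one with an unadjusted p under 0.05 and DESeq2 and limma voom called 0, while Ube2n, which builds ubiquitin chains, and Irak2, a kinase of the MyD88 complex, had log2 fold changes of -0.08 and 0.14. That 1 of 14 is below the share of all genes higher at an unadjusted p under 0.05, 10.8%. Of 11 NF-kB and IRF factors 0 passed, 4 were higher at an unadjusted p under 0.05, and DESeq2 called 3 and limma voom 0. They were led by Irf7, the interferon regulatory factor of the Tlr7 and Tlr9 pathway, at 3.14 ± 0.169 CPM in WT and 25.1 ± 13.2 CPM in SOD1G86R mice (log2 fold change 3.0, standard error 0.52, edgeR adjusted p = 0.015). Irf7 was 3.92 CPM in SOD1G86R replicate 4. Nfkb2, an NF-kB precursor, and Irf5, an IRF of myeloid cells, had log2 fold changes of 0.64 and 0.86 (edgeR adjusted p = 0.0261 and 0.0271).

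Of 9 inhibitors Socs3, which blocks cytokine receptor signalling, rose from 1.95 ± 0.215 CPM to 8.22 ± 3.52 CPM (log2 fold change 2.08, standard error 0.34, edgeR adjusted p = 0.00917), and 8 did not pass. Socs3 was 2.37 CPM in SOD1G86R replicate 4, against at most 2.29 CPM in WT. At an unadjusted p under 0.05, 3 inhibitors were higher, and DESeq2 called 1 and limma voom 0. Tnfaip3, the ubiquitin-editing enzyme A20 that restrains NF-kB, had a log2 fold change of 0.49 and Il1rl1, a receptor of the interleukin family, of 1.09 (edgeR adjusted p = 0.0521 and 0.147). Of 11 genes that Toll-like receptors induce, 5 passed the filter and 0 the test. Each of the 5 had an unadjusted p under 0.05 and was higher, and DESeq2 called 4 and limma voom 0. Il1b, Ccl3, Ccl5 and Cxcl10 had as few as 5, 6, 8 and 7 counts in a WT library. These genes passed the filter only through SOD1G86R libraries, so the counts and the median of this list partly reflect the filter. Cxcl10, a chemokine for T cells, was at 0.319 ± 0.097 CPM in WT and 9.29 ± 6.43 CPM in SOD1G86R mice (log2 fold change 4.86, standard error 0.83, edgeR adjusted p = 0.0141), Ccl3, a chemokine of macrophages, at 0.278 ± 0.0775 CPM and 3.97 ± 2.31 CPM (log2 fold change 3.8, standard error 0.66, edgeR adjusted p = 0.0127), and Il1b, an inflammatory cytokine, at 0.325 ± 0.167 CPM and 1.1 ± 0.545 CPM (log2 fold change 1.73, standard error 0.39, edgeR adjusted p = 0.0233). In SOD1G86R replicate 4 they were at 0.519, 0.292 and 0.519 CPM. Tnf, Il6, Il12b, Ifnb1, Nos2 and Ccl2 did not pass the filter, with at most 17, 17, 8, 1, 16 and 130 counts in a library, and were not tested. All but Nos2 had a higher mean in SOD1G86R mice. Ccl2 was at 0.211 ± 0.0812 CPM in WT and 2.34 ± 1.49 CPM in SOD1G86R mice, with 0.227 CPM in replicate 4. Il6 was at 0.0696 ± 0.0482 CPM and 0.301 ± 0.107 CPM.

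Of 9 genes for endogenous ligands 0 passed the test, 1 had an unadjusted p under 0.05, and DESeq2 and limma voom called 0. It was Bgn, a proteoglycan of the matrix, at 16.3 ± 1.46 CPM and 19.97 ± 4.11 CPM, while Fn1, a matrix glycoprotein, and Tnc, a matrix protein of injured tissue, had edgeR adjusted p of 0.313 and 0.315. That 1 of 9 is near the share of all genes higher at an unadjusted p under 0.05, 10.8%. Without SOD1G86R replicate 4 the lists gave 2 of 8 partners, 4 of 5 proteases, 3 of 6 adaptors, 1 of 14 kinases and ligases, 3 of 11 factors, 1 of 9 inhibitors, 4 of 5 tested response genes and 0 of 9 ligands as higher. In that fit 4.55% of all genes were called higher, so a single gene of a list is no result about the list. The 4 response genes are those that passed the filter of the main fit only through SOD1G86R libraries. Over the 10 fits that left out 1 mouse the number called ran from 0 to 3 for the adaptors, 0 to 1 for the inhibitors and 0 to 9 for the microglia markers, and was 1 in every fit for the perivascular macrophage markers. The share of all genes called higher ran from 0.07 to 4.55% over these fits.

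**Figure D5:**
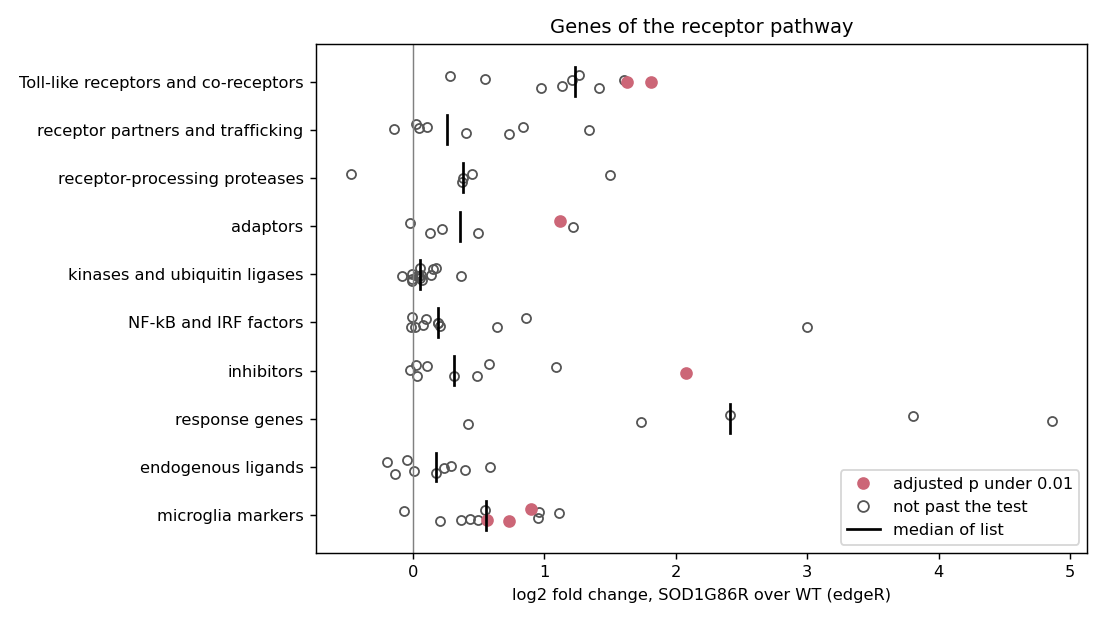
The log2 fold change of SOD1G86R over WT (horizontal axis, edgeR) of the tested genes of each pathway list and of the microglia markers, 1 point per gene, filled where the adjusted p was under 0.01, with a line at the median of the list. The median of the receptor list is 1.24, and those of the kinases and of the response genes are 0.06 and 2.41. The last is over 5 genes, of which 4 passed the filter only through SOD1G86R libraries.

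Markers of other cells that carry these receptors were read beside them. The shares of all genes that stand beside the pathway lists apply here too. Mrc1, the mannose receptor, rose from 2.41 ± 0.347 CPM to 4.85 ± 0.573 CPM (log2 fold change 1.01, standard error 0.13, edgeR adjusted p = 0.00163) and was the 1 of 6 markers of perivascular macrophages past the test, with a summed level of 6.21 to 9.82 CPM in WT and 10.7 to 14.9 CPM in SOD1G86R mice. At an unadjusted edgeR p under 0.05, 5 of these 6 were higher, and DESeq2 and limma voom called 1 each. Of 6 B cell markers, which matter for Cd180, 0 passed, had an unadjusted p under 0.05 or were called by DESeq2 or limma voom, and their summed level was 4.96 to 16 CPM in WT and 1.92 to 10.05 CPM in SOD1G86R mice. Of 9 markers of monocytes and neutrophils 0 passed or were called at an unadjusted p under 0.05, by DESeq2 or by limma voom, with 16.4 to 90.3 CPM in WT and 19.8 to 111 CPM in SOD1G86R mice. Of 6 astrocyte markers 0 passed, 3 were higher at an unadjusted p under 0.05, and DESeq2 called 2 and limma voom 0, with a sum of 5469 to 6507 CPM in WT and 6231 to 9927 CPM in SOD1G86R mice. Of T and NK cell markers (6 of 7 tested), neuron (6), oligodendrocyte (6), endothelial (5) and dorsal root ganglion markers (3 of 6 tested), 0 passed. At an unadjusted p under 0.05, 1, 0, 0, 2 and 1 were higher, and 1 oligodendrocyte marker, Mbp, was lower (log2 fold change -0.15). DESeq2 called 1, 0, 0, 0 and 0 higher and limma voom 0 in each list. Klrb1c and Avil, the T and NK cell and ganglion genes among these, passed the filter only through SOD1G86R libraries. The ganglion markers summed to 59 to 78.2 CPM in WT and 39.7 to 136 CPM in SOD1G86R mice. Blk, a B cell kinase, and Ncr1 fell to 0 counts in SOD1G86R libraries, and Ncr1, Scn10a and Mrgprd in WT libraries. No marker of any list was at 0 in all libraries. Scn10a, Trpv1, Mrgprd and Ncr1 did not pass the filter. For all these lists the part of these cells in the receptor levels was not tested.

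The mice of a group also differed in the receptors as a set. Mean log2 CPM of the 10 genes lay at a deviation of -0.89 from the SOD1G86R mean in replicate 4 and 0.43 above it in replicate 1, and within WT it was lowest in replicate 3, which had the lowest level of 7 genes, and highest in replicate 2, which had the highest of 6. Outside the 10, the genes whose deviations from their group means were most like this profile over the 10 mice were Ctss (r = 0.99, 0.92 without SOD1G86R replicate 4), Mmp12 (r = 0.99, 0.92 without SOD1G86R replicate 4), Shisa5 (r = 0.99, 0.92 without SOD1G86R replicate 4), Cd86 (r = 0.98, 0.94 without SOD1G86R replicate 4) and C1qb (r = 0.98, 0.89 without SOD1G86R replicate 4). These encode the lysosomal protease cathepsin S, the macrophage elastase, a death-associated protein of the endoplasmic reticulum, a co-stimulatory ligand and a chain of complement C1q. The points share the libraries, SOD1G86R replicate 4 among them, so that these values of Pearson's r describe likeness only.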

How the data were processed

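RNA of the lumbar spinal cord of 5 WT and 5 SOD1G86R mice was sequenced. The authors mapped reads to mm10 with TopHat 2.0.14 and counted them per gene of Ensembl release 81 with HTSeq 0.6.1, and the deposited values are raw counts without normalization for 32506 genes. Neither library kit nor strand setting is given in the sources used here. Symbols, positions and exon lengths were taken from GENCODE M21 (GRCm38, the assembly of mm10), with 32247 identifiers matched.

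Counts were filtered with filterByExpr, scaled by TMM and tested between genotypes with robust quasi-likelihood F tests in edgeR 4.0.16 (R 4.3.3), with p adjusted by Benjamini and Hochberg over 16974 genes at the threshold of 0.01 of the study, which used DESeq2. The standard error is the log2 fold change divided by the square root of F. Ratios within a mouse were taken from log2 CPM (prior count 2) and two-sided exact permutation of mice (252 assignments). The script was tested on simulated data. Alternatives were other scalings, filters and tools (limma 3.58.1, DESeq2 1.42.0), the replicate number as a block, and each mouse left out. Libraries of a group differed by more than counting noise. Totals of 29333590 to 46003999 counts limit the precision of genes with few reads.

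The receptors, gene lists and tests were chosen with earlier results of these data known, and no p was adjusted over a list. Named genes were all 10 receptors, genes of a pathway list past the test or among its 3 smallest p, list genes below the filter, and 5 genes of like profile. Marker lists other than microglia and perivascular macrophages are given by counts and sums.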

Additional observations from a re-analysis of the deposited data

Results flagged for a closer look

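In a scan of 34 groups of 5 mice (the CPM of 10 genes and 7 ratios, in each genotype), 3 held a mouse whose gap to the next exceeded Dixon's 95% critical value of 0.710 of the range, which chance gives for about 1 group of 20. Tlr2 was 4.96 CPM in SOD1G86R replicate 4, against 14.4 to 16.7 CPM in the other SOD1G86R mice. Cd14 was 5.25 CPM in the same mouse, against 14.7 to 17.1 CPM in the others. Cd180 was 3.62 CPM in WT replicate 2, against 2.37 to 2.71 CPM in the other WT mice.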

How the results depend on the processing

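All 10 receptor genes stayed higher in SOD1G86R mice in each of 20 alternatives, and no sensitivity value of the receptors reversed. The threshold of 0.05 and the fit without robust estimation have the fold changes of the main fit, so they give no separate check of direction. The number called higher, 2 of 10, was also 2 with DESeq2 size factors, upper quartile scaling, no filter, or Sod1 and Gm8566 left out before scaling. It was 8 by DESeq2, 0 by limma voom, 8 by limma voom with sample quality weights, 4 without robust estimation and 8 at a threshold of 0.05, and 0 to 9 when 1 mouse was left out, with 9 without SOD1G86R replicate 4. Over all genes 147 were higher and 43 lower, against 731 and 107 by DESeq2, 29 and 30 by limma voom, 646 and 86 with quality weights, 254 higher without robust estimation, 654 and 127 at 0.05, and 12 to 782 higher and 19 to 86 lower when 1 mouse was left out. The cause of these differences was not tested. With the replicate number as a block 2 receptors were again called, and 109 genes were higher and 31 lower. Same-numbered libraries had correlations of -0.37 to 0.26 between their deviations, and 1 of 10 correlated best with its own number. The within-mouse ratios of receptor pairs without each mouse were chosen after seeing the data, and Tlr2 over Tlr6 had p of 0.0317 with all mice and up to 0.0635 without 1. The pseudocount alternative of 0.5 changed no side of 0.05. Of the values of single genes and ratios, 413 kept their side of the threshold, 30 newly passed it and 47 no longer did. Depth limits Tlr1, with 24 to 54 counts per WT library.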
